A study of Homo sapiens with 12 samples.

Results

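The G1 and S phase replication genes are 34 human genes whose products take a cell from growth signalling in G1 into the copying of its DNA. They were chosen by name: each probe set of the array whose gene symbol was one of the 34 was taken, in all 4 groups of the study. A probe set is a group of short probes that read a single transcript. By the symbols in the table, 66 probe sets of 31 genes were found. CDC45, ORC1 and ORC6 stood there under the older symbols CDC45L, ORC1L and ORC6L, were matched by gene ID and had 1 probe set each. This gave 69 of 54675 probe sets and all 34 genes. For each gene the brightest probe set that passed a filter on dim signal entered the test, so that 34 of 12504 genes tested were members. The 8 member probe sets that did not pass the filter lay under a signal of 16 on all 12 arrays.

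The study set human cancer cells beside mouse muscle precursors and read the cancer cells' RNA. It had 4 groups of 3 arrays: 786-O beside myoblasts, 786-O grown alone, PC3 beside myoblasts, and PC3 grown alone. 786-O is a line from a human renal carcinoma and was kept in RPMI1640. PC3 is a line from a human prostate carcinoma and was kept in F-12K, so line and medium cannot be told apart. In transwell plates, 30000 cancer cells sat in the lower well for 6 h, after which 10000 primary myoblasts from the limbs of C57BL/6-Tg GFP mice aged 5 days went into the upper chamber for 12 h. Other labels call the same mixture 1:1. Each line stands for its tumour type alone, and the labels leave unsaid whether repeats came from separate cultures. The p-values therefore cover no more than the spread among these arrays, which may be technical. The comparisons ask what each line changed beside myoblasts, whether the lines answered differently, and how the lines differ.

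Before a cell copies its DNA, the origin recognition complex (with ORC1 and ORC6), CDC6 and CDT1 load the ring of MCM2 to MCM7 onto origins, a step called licensing. Cyclin D with CDK4 or CDK6, and then cyclin E with CDK2, phosphorylate the retinoblastoma protein, which frees E2F factors to drive many genes of this set. CDC45 and the GINS complex join the ring to form the active helicase, and MCM10 helps to start it. The DNA polymerase alpha catalytic subunit POLA1, the clamp PCNA, the clamp loader subunit RFC4 and the flap nuclease FEN1 then work at the fork, while RRM1, RRM2 and TYMS supply deoxynucleotides.

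The promoters of these genes are shown because E2F binding there is the textbook link between them. RefSeq promoters (GRCh38.p14, from 250 bases before to 50 after the start) were matched for 28 of the 34 genes. CCND1, CCND2, CCNE2, CDK2, MCM4 and MCM5 were not among them. The letters TTTCGCGC, TTTGGCGC, TTTCCCGC or TTTGCCGC, searched on both strands with overlaps counted, stood in 15 of the 28 (53.57%), against 908 of 27305 promoters of the table (3.325%). CCAAT, the letters that the factor NF-Y reads, stood in 17 of the 28 (60.71%), against 35.7% of all promoters. The members' promoters thus held E2F letters far more often than promoters at large, as a description of sequence that the arrays did not test. The promoters of 4 genes follow, on their gene's strand, with E2F and CCAAT letters in capitals. MCM10, CDK6 and ORC1 were taken for their large differences between the lines, and MCM6 because it had the most E2F matches, which was seen before it was chosen.
MCM10, chr10:13161308-13161607, plus strand: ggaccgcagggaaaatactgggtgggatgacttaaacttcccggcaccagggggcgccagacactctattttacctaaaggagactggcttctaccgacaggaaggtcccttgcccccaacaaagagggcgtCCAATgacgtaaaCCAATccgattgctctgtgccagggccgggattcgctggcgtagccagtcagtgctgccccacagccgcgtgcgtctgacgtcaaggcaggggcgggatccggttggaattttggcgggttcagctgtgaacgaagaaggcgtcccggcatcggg
CDK6, chr7:92836524-92836823, minus strand: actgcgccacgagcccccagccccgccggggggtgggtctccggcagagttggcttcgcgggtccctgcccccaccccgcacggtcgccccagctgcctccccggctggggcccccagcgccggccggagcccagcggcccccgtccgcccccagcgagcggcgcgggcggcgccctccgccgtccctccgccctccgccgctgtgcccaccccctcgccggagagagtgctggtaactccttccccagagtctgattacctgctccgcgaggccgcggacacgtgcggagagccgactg
ORC1, chr1:52404374-52404673, minus strand: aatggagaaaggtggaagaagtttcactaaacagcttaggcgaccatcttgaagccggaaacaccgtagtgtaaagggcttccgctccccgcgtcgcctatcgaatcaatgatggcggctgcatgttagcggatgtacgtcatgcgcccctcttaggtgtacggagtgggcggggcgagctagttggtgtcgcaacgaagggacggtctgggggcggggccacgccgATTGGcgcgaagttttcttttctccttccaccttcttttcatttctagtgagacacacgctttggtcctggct
MCM6, chr2:135876394-135876693, minus strand: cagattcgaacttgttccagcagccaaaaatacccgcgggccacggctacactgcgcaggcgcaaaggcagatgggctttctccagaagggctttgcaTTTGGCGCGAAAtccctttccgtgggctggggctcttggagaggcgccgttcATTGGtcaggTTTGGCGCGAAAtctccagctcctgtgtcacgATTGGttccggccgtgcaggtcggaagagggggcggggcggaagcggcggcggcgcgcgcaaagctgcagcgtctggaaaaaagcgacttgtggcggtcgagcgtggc
In MCM6 the run TTTGGCGCGAAA occurs at 2 places, each holding 1 match per strand, so that 4 overlapping matches were counted. The run starts 152 and 90 bases before the start site, and the CCAAT letters of MCM6, read on the opposite strand as ATTGG, lie 100 and 58 bases before it. MCM10 holds CCAAT 118 and 105 bases before its start, ORC1 holds ATTGG 23 bases before its start, and the CDK6 window holds neither motif. None of MCM10, CDK6 and ORC1 had a match to the E2F letters searched, which says only that these letters are not in this window.

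The array table gives 1 linear signal intensity per probe set, which was taken to log2. Groups were compared in limma with an adjusted p under 0.05, over all 12504 genes, as the threshold, and the 4 groups shared 1 estimate of spread per gene. Co-cultured 786-O replicate 2 stood apart from the other 11 arrays. Its ratio of 3' to 5' signal was 7.22 for ACTB, against 3.08 to 4.24 elsewhere, and 1.84 for GAPDH, against 1.07 to 1.29. Values without it are given beside the 786-O calls on the probe sets used, and for other members where they moved most. Fits of every probe set and of the mean of probe sets were not repeated without it. Myoblast markers were near the floor of the array. Of 12 such markers 11 lay under a signal of 16 on all 786-O arrays and 12 of 12 on all PC3 arrays, MYOD1, MYF5 and DES among them. PAX3 alone was above it, at 162.5 to 355.7 in 786-O with myoblasts and 77.7 to 178.9 in 786-O alone, and it set the marker sums of 214.6 to 409.6 with myoblasts and 130.6 to 230.0 alone. In PC3 the sums were 57.9 to 64.0 with myoblasts and 57.5 to 59.8 alone. The probes are for human genes and the myoblasts were from mice, so these signals cannot show how much myoblast RNA was present. The kidney marker PAX8 read 1118 to 1827 in 786-O with myoblasts and 742.5 to 790.2 in 786-O alone. The summed signal of the 7 renal markers, 2 of them under the floor on all 786-O arrays, was 6730 to 8884 with myoblasts and 4234 to 4620 alone, so these markers moved with the 786-O comparison below, and their part in it was not tested. CA9, a carbonic anhydrase of clear cell renal carcinoma, lay under the floor in 786-O. PC3 arrays had EPCAM and KRT19, epithelial markers, while the prostate marker KLK3 lay under the floor.

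In 786-O cells with myoblasts, 3 of the 34 genes rose and 0 fell. They were ORC1, the largest subunit of the origin recognition complex, MCM6, a subunit of the helicase ring, and RFC4, a subunit of the clamp loader. The rises were modest, between 1.12-fold and 1.49-fold. The other 31 genes did not pass the test, and their 95% intervals, like those of the 3, all lay within 2-fold of no change; for 32 of the 34 they lay within 1.5-fold. Across all genes, 8.08% rose and 3.9% fell in this comparison, so 3 rises among 34 (8.82% of members called in all, against 12.0% of genes) is near the background. At an unadjusted p under 0.05, limma gave 7 members higher and 4 lower. No share of all genes was counted at that threshold, here or below, so such counts are not read as results about the set.

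ORC1 had signals of 561.8, 639.3 and 535.0 in 786-O with myoblasts, against 360.3, 390.7 and 412.7 in 786-O alone. All co-cultured arrays were above all arrays grown alone, and replicate 2 was the highest. The log2 fold change was 0.58 ± 0.13 (SE, n = 3 per group; limma adjusted p = 0.0186), and without replicate 2 it was 0.50 (adjusted p = 0.0341). More cells in a phase and more RNA per cell cannot be told apart in such bulk arrays, here and for each gene below. RFC4 had 13683, 14316 and 13838 with myoblasts, against 12393, 12828 and 12265 alone. Its groups did not overlap either, and its log2 fold change was 0.16 ± 0.03 (SE, n = 3 per group; limma adjusted p = 0.0152), or 0.14 without replicate 2 (adjusted p = 0.0215). MCM6 had 8430, 9404 and 8227 with myoblasts, against 7729, 7442 and 7657 alone. The rise was 0.19 ± 0.05 on the log2 scale (SE, n = 3 per group; limma adjusted p = 0.0387), and 0.13 without replicate 2 (adjusted p = 0.0523). The MCM6 call held in only 3 of 12 omissions of an array, PC3 arrays included, with the highest adjusted p, 0.131, without 786-O alone replicate 2. The calls of ORC1 and RFC4 also ended without 786-O alone replicate 1 (adjusted p = 0.0655 and 0.0543). The ORC1 call ended without 786-O alone replicate 2 (0.0625) and the RFC4 call without 786-O alone replicate 3 (0.069).

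The other subunits of the helicase ring lay above 0 as well, but did not pass the test, and replicate 2 held much of their difference. MCM2 had 4226, 5453 and 3950 in 786-O with myoblasts, against 3761, 3707 and 3522 alone (log2 fold change 0.30, limma adjusted p = 0.0692). MCM3 had 4898, 7227 and 4877 with myoblasts, against 4672, 4516 and 4754 alone (0.26, adjusted p = 0.167). Without replicate 2 these values were 0.16 for MCM2 and 0.07 for MCM3. MCM5 (0.27), MCM4 (0.08) and MCM7 (0.07) completed the ring, whose 6 genes had a median of 0.22, with 1 called. Across all 34 genes the median difference from the mean of 786-O alone was 0.112 for replicate 2, against 0.0148 and 0.00038 for replicates 1 and 3. The members were thus displaced on the array whose ACTB and GAPDH ratios stood apart, and hardly on the other co-cultured arrays. Genes at large moved with that array too: their median 786-O response was 0.0167, and 0.0011 without replicate 2. The members' median was 0.0216, and 0.0130 without it. The displacement is therefore not read as a trait of the set, and the part of RNA quality in it was not tested.

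Among the other licensing factors, CDT1 and CDC6 tended to lie below 0. CDT1, which carries the ring to origins, had 2490, 2582 and 2108 in 786-O with myoblasts, against 2865, 2784 and 2743 alone (log2 fold change -0.23, limma adjusted p = 0.132). CDC6, its partner in loading, was at -0.07 and ORC6 at -0.05. The helicase activators ran both ways, with CDC45 at 0.16, GINS2 at -0.01, GINS1 at -0.10 and MCM10 at -0.11, and none of the 4 was called. At the fork POLA1 was at 0.13, FEN1 at 0.08 and PCNA at 0.01, none called. Of the enzymes of nucleotide supply, TYMS (thymidylate synthase) was at 0.17 and RRM1, the large subunit of ribonucleotide reductase, at 0.11, while RRM2, its small subunit, was at -0.12, none called.

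The cyclins and kinases of G1 gave no call in 786-O on the probe sets used. CCNE2, cyclin E2, had 4184, 5350 and 3878 in 786-O with myoblasts, against 5067, 5030 and 5881 alone. Replicate 2 lay among the arrays grown alone, and the other co-cultured arrays lay below them. The log2 fold change was -0.26 ± 0.12 (SE, n = 3 per group; limma adjusted p = 0.158), and without replicate 2 it was -0.40 and passed (adjusted p = 0.0226). CCNE1, cyclin E1, was at 0.14 and CDK2, the kinase of both, at -0.06. Of the D cyclins, CCND3 was at 0.23 (0.06 without replicate 2), CCND1 at -0.12 and CCND2 at 0.00. CDK4 was at -0.07 and CDK6 at -0.14 (adjusted p = 0.0743). E2F1 was at 0.27, or 0.11 without replicate 2, and E2F2 at -0.08. UHRF1, which brings maintenance methylation to new DNA, was at 0.02, SLBP, which binds histone messages, at 0.03, and DTL, the adaptor that sends CDT1 to degradation, at -0.07.

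**Figure D1:**
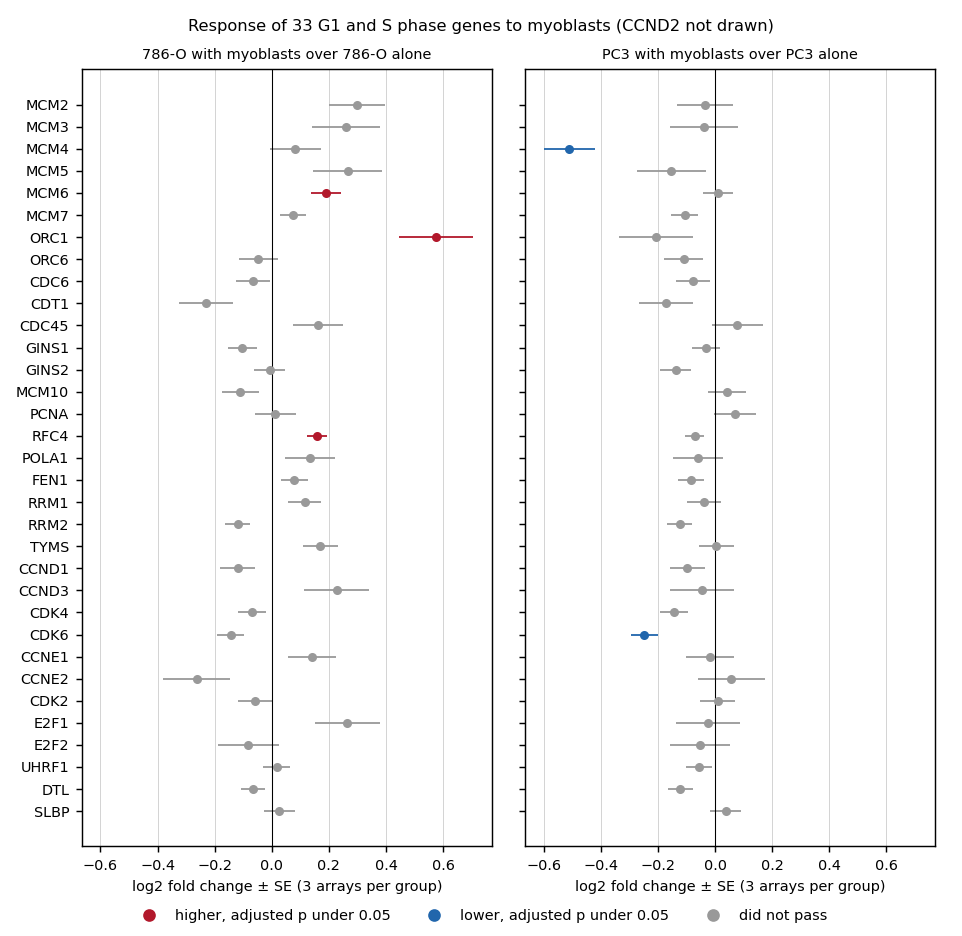
Log2 fold change, co-culture against alone, of 33 of the 34 genes in 786-O (left) and PC3 (right), grouped by role. Points are limma estimates with bars of 1 SE, red where a gene rose, blue where it fell and grey where it did not pass; CCND2 is not drawn because it lay under the floor on 5 of the 6 PC3 arrays. ORC1 (0.58), MCM6 (0.19) and RFC4 (0.16) are red on the left, and MCM4 (-0.51) and CDK6 (-0.25) are blue on the right.

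In PC3 cells with myoblasts, 0 of the 34 genes rose and 2 fell. They were MCM4, a subunit of the helicase ring, and CDK6, a kinase that pairs with D cyclins. The remaining 32 did not pass the test, and 33 of 34 intervals lay within 2-fold of no change. Across all genes, 3.19% rose and 2.51% fell, so that 2 falls among 34 (5.88%) is near the 5.70% of genes called. At an unadjusted p under 0.05, limma gave 0 members higher and 8 lower, with no share of all genes to set beside these counts. Without co-cultured 786-O replicate 2, which lowers the shared spread, RRM2 was called lower as well, while 5.17% of all genes then fell.

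MCM4 had 4187, 5205 and 4000 in PC3 with myoblasts, against 6726, 5946 and 6297 in PC3 alone. Every co-cultured array lay below every array grown alone. The log2 fold change was -0.51 ± 0.09 (SE, n = 3 per group; limma adjusted p = 0.00517), a level of 0.702 of that grown alone. CDK6 had 4332, 4322 and 4299 with myoblasts, against 4835, 5017 and 5549 alone. The co-cultured arrays nearly coincided and all lay below the others, a log2 change of -0.25 ± 0.05 (SE, n = 3 per group; limma adjusted p = 0.0106). Both calls held without any single array, with the highest adjusted p at 0.0305 for MCM4 and 0.041 for CDK6.

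Most other members lay slightly below 0 in PC3. Of the 34, 26 were below 0 and 8 above, with a median of -0.058, while 52.7% of all genes lay above 0 with a median of 0.0049. Each co-cultured PC3 array had 26 or 27 of the 34 below the mean of PC3 alone, an average that all 3 share. ORC1 read 151.9, 149.3 and 121.2 with myoblasts, against 150.2, 155.9 and 180.2 alone (log2 fold change -0.21, limma adjusted p = 0.468). RRM2 read 20737, 21095 and 20579 with myoblasts, against 22095, 22638 and 23250 alone, without overlap (-0.12, adjusted p = 0.152). The next in size were CDT1 (-0.17), MCM5 (-0.15), CDK4 (-0.14), GINS2 (-0.14) and DTL (-0.12), none called. The highest values were CDC45 at 0.08 and PCNA at 0.07. CCND2 lay under the floor on 5 of the 6 PC3 arrays, so no fold is given for it, and with such signals raised to the floor the median of the 34 was -0.058 too.

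The difference between the responses, 786-O minus PC3, passed the test for 3 genes, all toward higher in 786-O: ORC1, MCM4 and RFC4. Across all genes, 3.4% passed in that direction and 2.57% in the other. MCM4 differed by 0.59 ± 0.13 on the log2 scale (SE, n = 3 per group; limma adjusted p = 0.0199), with a response of 0.08 in 786-O and -0.51 in PC3. ORC1 differed by 0.78 ± 0.18 (SE; limma adjusted p = 0.0308), with 0.58 in 786-O and -0.21 in PC3. RFC4 differed by 0.23 ± 0.05 (SE; limma adjusted p = 0.0189), with 0.16 in 786-O and -0.07 in PC3. The CDK6 responses did not differ detectably on the probe set used, at 0.10 with a 95% interval from -0.05 to 0.25. Its other 5 probe sets had differences below 0, and 1 of them, 235287_at, under the floor in PC3, was called lower in 786-O (limma adjusted p = 0.00251). On the probe sets used, no member was called in the other direction, and without co-cultured 786-O replicate 2 CCNE2 was (-0.46, adjusted p = 0.0459). At an unadjusted p under 0.05, 8 members were higher and 0 lower, again with no share of all genes beside them. Without that array the differences of ORC1, MCM4 and RFC4 were 0.71, 0.53 and 0.21 and still passed. Over 12 omissions of an array, the MCM4 call held in 9, with the highest adjusted p, 0.0579, without PC3 with myoblasts replicate 1. The ORC1 call held in 6, with 0.0814 without PC3 alone replicate 3, and the RFC4 call in 8, with 0.059 without 786-O alone replicate 3.

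**Figure D2:**
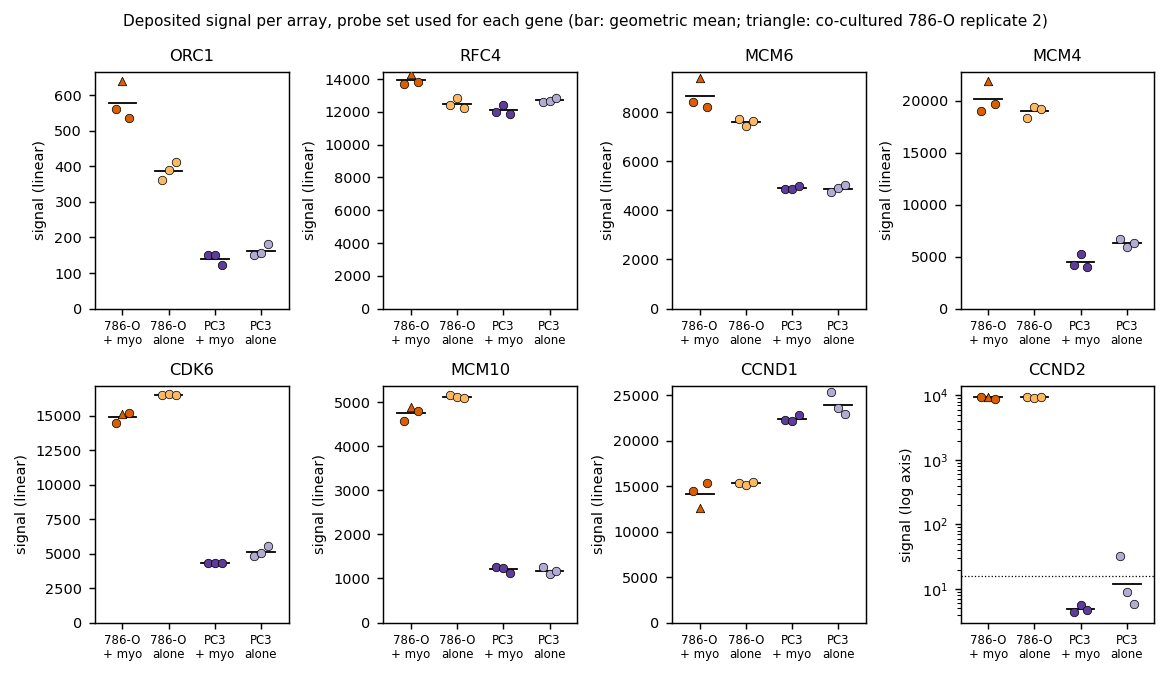
Signal intensity of ORC1, RFC4, MCM6, MCM4, CDK6, MCM10, CCND1 and CCND2 on each of the 12 arrays (linear axis from 0, except CCND2, which has a log axis with the floor of 16 dotted); points are arrays, bars are geometric group means, and the triangle is co-cultured 786-O replicate 2. The ORC1 arrays of 786-O with myoblasts (535.0 to 639.3) all sit above those of 786-O alone, and the MCM4 arrays of PC3 with myoblasts (4000 to 5205) all sit below those of PC3 alone.

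Several members are read by more than 1 probe set, and these did not always move together. Of 61 member probe sets above the filter, tested among 22802 probe sets, 6 were called in the 786-O response, 3 in the PC3 response and 4 in the difference, of which 3 were higher in 786-O and 1, of CDK6, lower. Over all probe sets the shares called were 8.74%, 4.23% and 4.22%. Of the 18 members with several probe sets, 13 had all of them on 1 side of 0 in 786-O, 8 in PC3 and 10 in the difference, and none had calls in both directions. Probe sets of a gene share its RNA and are not replicates.

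CDK6 has 6 probe sets above the filter, and all 6 lay below 0 in 786-O. The one used, 224847_at, had 14466, 15158 and 15204 in 786-O with myoblasts, against 16489, 16552 and 16492 alone, without overlap (log2 fold change -0.14, limma adjusted p = 0.086 among probe sets). The probe set 224848_at had 2420, 1727 and 2676 with myoblasts, against 3329, 3176 and 3337 alone, and it fell with -0.55 (limma adjusted p = 0.0443). The probe set 235287_at lay under the floor on all co-cultured arrays (10.8, 12.3 and 12.7), against 36.2, 46.5 and 51.3 alone, at least 2.76-fold lower (limma adjusted p = 0.000359). So CDK6 gave called falls in 786-O on probe sets other than the brightest. Replicate 2 was the lowest co-cultured array on 224848_at, and neither call was refitted without it. In PC3 only 224847_at was called, while 224848_at (-0.28) and 224851_at (-0.38) lay on the same side. Of the 6 probe sets 4 lay below 0 in PC3 and 2 above, 243000_at at 0.14 and 235287_at, which was under the floor on all PC3 arrays. Averaged over its probe sets, the CDK6 response in PC3 was -0.13 and did not pass (limma adjusted p = 0.741), while that in 786-O was -0.67 and passed (adjusted p = 0.0115).

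MCM4 has 4 probe sets above the filter, which disagreed in PC3. The 222037_at probe set used above (-0.51) and 212141_at (-0.53, limma adjusted p = 0.00769 among probe sets) both fell. The 212141_at signals were 299.97, 333.3 and 304.2 in PC3 with myoblasts, against 421.4, 460.6 and 471.8 in PC3 alone. In contrast 222036_s_at read 6700, 5892 and 7121 with myoblasts, against 7213, 5743 and 4679 alone, overlapping groups with a log2 difference of 0.18 (adjusted p = 0.599). The fourth, 212142_at, lay under the floor in PC3. It was dim in 786-O with myoblasts, at 189.2, 6.14 and 302.7, against 211.3, 272.2 and 242.6 alone, with the low value on replicate 2. When the probe sets of MCM4 were averaged the PC3 value was -0.33 and did not pass the test (adjusted p = 0.618).

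Other members gave few calls between probe sets. CCND2, cyclin D2, had a bright probe set, 200953_s_at, with 9595, 9474 and 8975 in 786-O with myoblasts, against 9357, 9151 and 9491 alone. Its dim probe set 200952_s_at lay under the floor with myoblasts (11.8, 4.80 and 10.2), against 38.8, 27.5 and 20.1 alone, at least 1.74-fold lower (limma adjusted p = 0.00985). CCNE2 was at -0.26 on its probe set 205034_at and -0.72 on 211814_s_at, neither called (adjusted p = 0.181 and 0.0632). Averaged over its probe sets, the CCNE2 response in 786-O was -0.49 and passed (limma adjusted p = 0.00494).

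**Figure D3:**
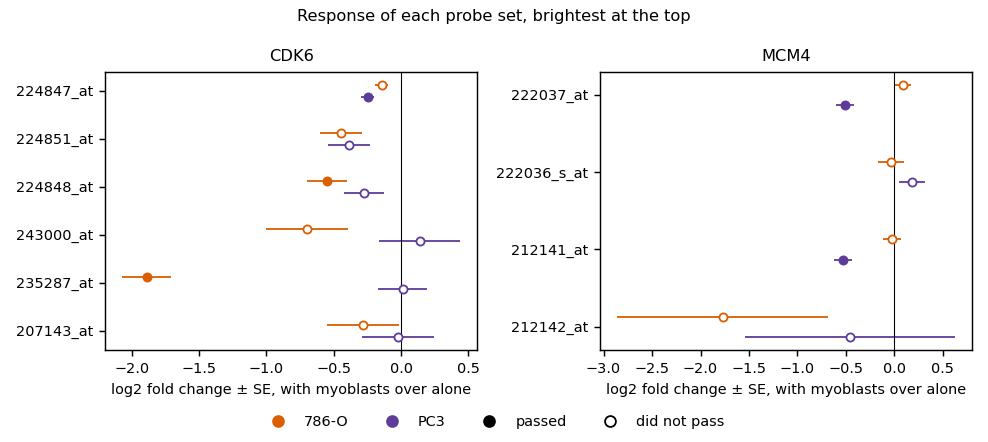
Log2 fold change, with myoblasts over alone, of each probe set of CDK6 (left) and MCM4 (right) above the filter, in 786-O (orange) and PC3 (purple); points are limma estimates with bars of 1 SE, filled where the adjusted p was under 0.05. The 6 CDK6 probe sets lie below 0 in 786-O, and 2 of the 4 MCM4 probe sets are called lower in PC3 while 222036_s_at lies above 0; the probe sets under the floor in PC3 are drawn at their fitted values.

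The lines themselves differed in most of these genes. Grown alone, 786-O had 19 of the 34 higher than PC3 and 7 lower, against 37% and 37.9% of all genes. So 26 of 34 members (76.5%) differed, against 9373 of 12504 genes, and the members' median log2 difference was 0.28, against 0.001 for all genes. With myoblasts 22 were higher and 7 lower in 786-O than in PC3, against 38.5% and 37.6% of all genes, with a median of 0.41. These comparisons share their arrays with the co-culture responses above. By probe set, 48 of 61 differed alone and 51 in co-culture, against 70.2% and 72% of all probe sets. All 18 members with several probe sets had them on 1 side of 0 in both comparisons. For some probe sets the filter set that direction in advance. In both PC3 groups 200951_s_at and 200952_s_at of CCND2 and 207143_at of CDK6 lay under its cut, and they passed through 786-O. In co-cultured PC3 200953_s_at of CCND2, which is counted among the 22, lay under the cut too. For 19 of the members all 6 arrays of 786-O lay above all 6 of PC3, for 4 all lay below, and for 11 the lines overlapped. This was not counted over all genes, so it is not read as a trait of the set.

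Most helicase genes among the members stood higher in 786-O. Of the ring, 5 of 6 were higher alone and 6 of 6 in co-culture, with medians of 0.63 and 0.88. All 4 helicase activators were higher in both, where 37% and 38.5% of all genes were higher. Related genes outside the members were mixed, with 9 of 18 higher and 5 lower alone, and 10 and 4 in co-culture. MCM8 (-0.90 alone) and WDHD1 (-1.28 in co-culture) were among the lower. The GINS1 call in co-culture (0.12, limma adjusted p = 0.0455) held in only 5 of 12 omissions, with the highest adjusted p, 0.139, without PC3 with myoblasts replicate 2. MCM10 had 4566, 4892 and 4799 in 786-O with myoblasts and 5169, 5116 and 5091 in 786-O alone, against 1258, 1234 and 1132 in PC3 with myoblasts and 1252, 1099 and 1171 in PC3 alone. That is 4.37-fold higher alone (log2 2.13 ± 0.07, SE, n = 3 per group; limma adjusted p = 2.58e-11). MCM4 was 3.01-fold higher alone and 4.54-fold higher in co-culture. Licensing followed in part. ORC1 was 2.40-fold higher alone and 4.12-fold in co-culture, ORC6 1.42-fold and 1.48-fold, and CDT1 1.53-fold and 1.47-fold. CDC6 did not pass on the probe set used (log2 0.02 and 0.03). Its other probe set, 203967_at, was called higher in 786-O grown alone (0.43) but not in co-culture (0.10).

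The D cyclins and their kinases were mixed, with a median of 0.28 alone, and CCND2 stood far apart. It was present in 786-O at 8975 to 9595 and lay under the floor on 5 of the 6 PC3 arrays, with 4.42, 5.73 and 4.66 with myoblasts and 32.5, 8.98 and 5.75 alone. It was at least 584-fold higher in 786-O in co-culture. Its mean in co-cultured PC3 lay under the cut of the filter, which set that direction in advance, so no p-value is given for it. Alone, with 1 of 3 PC3 arrays above the floor and the others set to it, it was at least 460-fold higher (adjusted p = 1.44e-09). CCND1 lay the other way, with 14507, 12616 and 15394 in 786-O with myoblasts and 15375, 15172 and 15483 in 786-O alone, against 22255, 22125 and 22777 in PC3 with myoblasts and 25378, 23603 and 22913 in PC3 alone. Its log2 difference was -0.64 ± 0.06 alone (SE, n = 3 per group; limma adjusted p = 1.22e-06) and -0.66 in co-culture. So the renal line carried transcripts of D2 that were not measured above the floor in most arrays of the prostate line, which had more CCND1. CCND3 did not pass in either comparison (-0.12 and 0.15). CDK6 was 3.22-fold higher alone and 3.46-fold in co-culture, and CDK4 1.21-fold and 1.28-fold.

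Fork and nucleotide genes did not share that direction. TYMS, the target of fluorouracil, had 18310, 19722 and 15977 in 786-O with myoblasts and 15838, 15814 and 16177 in 786-O alone, against 27267, 25835 and 27150 in PC3 with myoblasts and 26797, 25552 and 27656 in PC3 alone. It was lower in 786-O by a log2 difference of -0.74 alone and -0.58 in co-culture. RRM2 was lower too on the probe set used (-0.29 in both), and RRM1 higher (0.40 and 0.55). For the lines grown alone, the other probe set of RRM2, 201890_at, was at -0.08 and was not called. Of the fork genes, FEN1 (-0.27) and PCNA (-0.24) were lower alone, and RFC4 and POLA1 did not pass. In co-culture RFC4 (0.21) and POLA1 (0.30) were higher in 786-O and PCNA (-0.29) was lower. RFC4 is thus a gene whose lines did not differ detectably alone, at -0.02 with a 95% interval from -0.10 to 0.05.

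The remaining genes were mixed. SLBP was 1.96-fold higher in 786-O alone and 1.95-fold in co-culture, and DTL lower by -0.43 and -0.37. E2F2 was higher (0.41 and 0.38), and E2F1 did not pass (-0.19 and 0.10). CCNE1 was higher (0.28 and 0.44). CCNE2 was at -0.17 alone and was called lower in co-culture (-0.49); the test of that gap is the difference of responses above, which did not pass. CDK2 was at -0.09 alone and was called lower in co-culture (-0.15, limma adjusted p = 0.0396), a call that held in 6 of 12 omissions and ended without co-cultured 786-O replicate 2 (adjusted p = 0.111). UHRF1 was lower alone (-0.16). GINS1, GINS2, MCM2, MCM5, MCM6, MCM7 and CDC45 were higher in both, by 0.12 to 1.22 on the log2 scale.

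**Figure D4:**
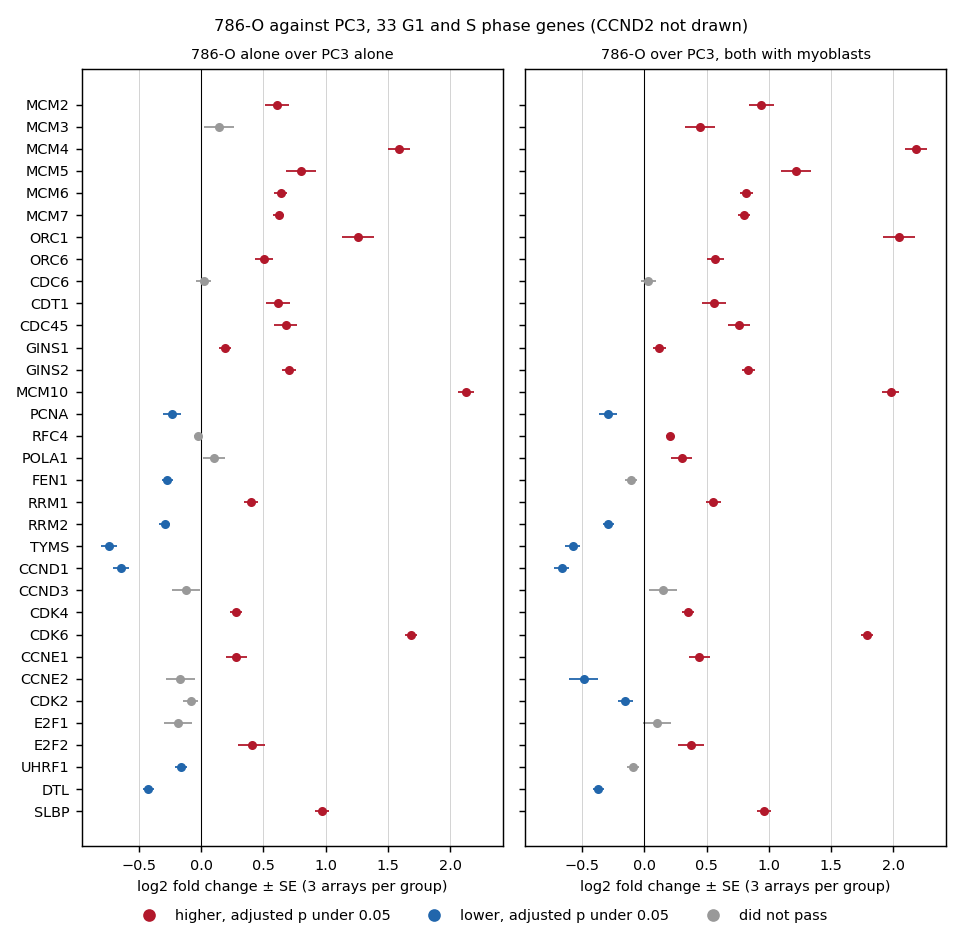
Log2 difference, 786-O minus PC3, of 33 of the 34 genes, alone (left) and with myoblasts (right), grouped by role; points are limma estimates with bars of 1 SE, red where 786-O was higher, blue where it was lower and grey where the test was not passed, and CCND2, which lay under the floor on 5 of the 6 PC3 arrays, is not drawn. MCM10 (2.13 alone), CDK6 (1.69) and MCM4 (1.59) lie far to the right, and TYMS (-0.74) and CCND1 (-0.64) to the left.

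Genes of the same pathway outside the 34 were read from 6 lists, with 107 genes tested. In 786-O with myoblasts 8 of them rose and 5 fell, against 8.08% and 3.9% of all genes, with a median of -0.019. Without co-cultured replicate 2 the counts were 6 and 9, against 7.76% and 4.61%. The polymerases, clamp loader and fork factors gave 6 rises and 1 fall among 31, against 8.08% and 3.9% of all genes, but 3 rises and 2 falls without replicate 2, against 7.76% and 4.61%. ASF1B, a histone chaperone of the fork, had 4163, 4488 and 3946 in 786-O with myoblasts, against 3457, 3501 and 3331 alone, without overlap (log2 fold change 0.29 ± 0.06, SE, n = 3 per group; limma adjusted p = 0.011). LIG1, the ligase that joins Okazaki fragments, rose with 0.49 and POLA2, a subunit of polymerase alpha, with 0.38. Without replicate 2 ASF1B (0.24) and LIG1 (0.48) still passed, and the POLA2 call ended (0.28, adjusted p = 0.0532).

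Of the other licensing and helicase genes, 1 of 18 rose and 1 fell. RECQL4, a helicase needed for initiation, rose with 0.52, and MCM9, a relative of the ring used in recombination, fell with -0.43. Without replicate 2 they were at 0.41 and -0.47 and still passed. Of the other G1 and S regulators, 1 of 27 rose and 2 fell. CCNG2, cyclin G2, a cyclin linked to arrest, had 1780, 1886 and 1755 in 786-O with myoblasts, against 1009, 934.0 and 1002 alone, and so lay well apart from the cells grown alone (0.88 ± 0.07, SE, n = 3 per group; limma adjusted p = 7.47e-05). Without replicate 2 CCNG2 was at 0.85 and still passed. CDC25A, the phosphatase that activates CDK2, fell with -0.21 (adjusted p = 0.0145; -0.19 without replicate 2), and BRIP1, a helicase of DNA repair, with -0.78 (-0.45 without replicate 2, adjusted p = 0.0458). In the retinoblastoma and E2F family 0 of 15 rose (1 higher and 4 lower at an unadjusted p under 0.05) and LIN9, a subunit of the DREAM complex, fell with -0.26 (-0.29 without replicate 2). Of 9 nucleotide supply genes and 7 CDK inhibitors none was called in limma, and none had an unadjusted p under 0.05. Without replicate 2 1 CDK inhibitor was called higher.

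In PC3 with myoblasts 2 of the 107 rose and 0 fell, against 3.19% and 2.51% of all genes. At an unadjusted p under 0.05, limma gave 6 higher and 7 lower. Without co-cultured 786-O replicate 2 the called counts were 3 and 2, against 5.34% and 5.17%. CDKN1A, the CDK inhibitor p21, had 4568, 4556 and 4822 in PC3 with myoblasts, against 4063, 3721 and 3930 alone. The groups did not overlap (log2 fold change 0.25 ± 0.06, SE, n = 3 per group; limma adjusted p = 0.0308). RBL2, the pocket protein p130, had 1274, 1329 and 1313 with myoblasts, against 1129, 1062 and 997.5 alone (0.30 ± 0.08, adjusted p = 0.0481). These were the only calls among the 7 CDK inhibitors and the 15 genes of the retinoblastoma and E2F family, and the other 4 lists had none. CDKN1A was at -0.11 in 786-O, and its responses differed between the lines (-0.36, adjusted p = 0.0306), as did those of ASF1B (0.37), LIG1 (0.69), POLA2 (0.52), CCNG2 (0.74), CDC25A (-0.24) and CUL4B (-0.27), a ubiquitin ligase scaffold. In all, 4 of the 107 were called higher and 3 lower in that difference, against 3.4% and 2.57% of all genes. CDKN1B, RB1, CCNA2 and MYC were not called in either response.

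Between the lines, 48 of the 107 were higher in 786-O alone and 35 lower, against 37% and 37.9% of all genes. In co-culture 49 were higher and 33 lower, against 38.5% and 37.6%. The same shares of all genes stand beside the counts of each list below. Alone, the licensing and helicase list had 9 higher and 5 lower of 18, the fork list 11 and 14 of 31, nucleotide supply 3 and 4 of 9, CDK inhibitors 1 and 3 of 7, the retinoblastoma and E2F family 10 and 2 of 15, and the other regulators 14 and 7 of 27. In co-culture the counts were 10 and 4, 11 and 11, 4 and 4, 2 and 4, 7 and 2, and 15 and 8. POLE2, a subunit of polymerase epsilon, was lower in 786-O (-1.71 alone and -1.81 in co-culture), as was CDKN3, a phosphatase that acts on CDK2 (-1.77 and -1.55). MYC was higher (1.16 and 1.07).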

How the data were processed

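RNA of 786-O and PC3 cells, with and without myoblasts, was read on 12 HG-U133 Plus 2 arrays, 3 in each of 4 groups taken from the sample titles. The deposited values are linear signal intensities per probe set, and the authors made them with MAS5, the only tool that the submitters' processing notes name, with no version. Whether arrays were scaled to each other is not given in the sources used here. The members and gene lists were chosen with earlier results of these data known.

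Intensities were taken to log2 with no constant added. Of 54675 probe sets, 39927 had 1 gene symbol, and the reference table of human genes held 38545 of these, whose current symbols were used. Probe sets were kept whose mean log2 signal exceeded that of the median probe set, 2.65, and the brightest stood for its gene, which gave 12504 genes. A signal of 16 was taken as the floor. Where a group lay under it, the fold is a lower bound against the floor.

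One limma model (version 3.58.1, R 4.3.3), with an intensity trend, took all 4 groups and gave 5 two-sided contrasts, with Benjamini-Hochberg adjustment over all genes. Values without an error are limma's estimates, and fits by probe set were adjusted over 22802 probe sets. The number of arrays limits the precision, with a median SE of 0.064 for a member's log2 response. On simulated data of 12504 genes, changes were put on genes drawn at random, dim ones included. Those of 0.25, 0.5 and 1 on the log2 scale were recovered in 6%, 44% and 90% of cases for the 786-O response. For PC3 the shares were 10%, 40% and 88%. Any member may be named, and of each other list the counts, up to 3 called genes with the smallest p and CDKN1A, CDKN1B, RB1, CCNA2 and MYC. Repeat numbers were not used to pair the arrays. Same-numbered arrays correlated, in deviation from their group, at -0.058 to 0.012 in 786-O and -0.132 to 0.113 in PC3. The highest correlation with another number was -0.0023 to 0.066 in 786-O and -0.042 to 0.212 in PC3. With 3 arrays per group these values cannot exclude a pairing. Alternatives changed the normalization, the centring, the filter, the added constant, the variance model, the choice of probe set, the samples fitted, the threshold, or added a replicate block or a covariate, and each array was left out in turn.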

Additional observations from a re-analysis of the deposited data

Results flagged for a closer look

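For 3 members the response to myoblasts differed between the lines by the test of that difference. ORC1, a subunit of the origin recognition complex, responded with 0.58 in 786-O and -0.21 in PC3 on the log2 scale, a difference of 0.78 (limma adjusted p = 0.0308, n = 3 per group). MCM4, a subunit of the helicase ring, responded with 0.08 in 786-O and -0.51 in PC3, a difference of 0.59 (limma adjusted p = 0.0199). Averaged over its probe sets, that difference was -0.11 and did not pass. RFC4, a clamp loader subunit, responded with 0.16 in 786-O and -0.07 in PC3, a difference of 0.23 (limma adjusted p = 0.0189).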

How the results depend on the processing

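Limits first. The 786-O calls rest on small differences and on a spread shared with PC3, and 1 array of 786-O with myoblasts stood apart in its 3' to 5' ratios. In simulated data, most changes of 0.25 on the log2 scale put on genes drawn from all those tested were not recovered. Members had a median SE of 0.064 for a response, and some smaller changes were called, such as RFC4 at 0.16 in 786-O. In 16 alternatives and 12 omissions of an array, 143 of 4656 member values changed their call or direction, and 1 changed direction with a call: the difference of responses of MCM4 was -0.11 (adjusted p = 0.886) with the mean of probe sets. The cause was not tested for the changes below unless the setting itself tests fewer genes or samples.

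In the 786-O response (3 members, 1498 genes), members called were 1 without an intensity trend, 5 with the ACTB ratio in the fit, and 0 with array weights, with weights shared by a group, with only the arrays of the contrast and at a threshold of 0.01. At an unadjusted p under 0.05 those settings with 0 gave 5, 10, 7 and 11 members. All genes called were 963 without a filter, 309 and 595 with the weights, 175 with only the contrast's arrays and 397 at 0.01. In the PC3 response (2 and 713), members called were 13 with array weights, which did not converge, 0 with the mean of probe sets (4 unadjusted), 1 with only the contrast's arrays, 4 with the ACTB ratio and 1 at 0.01. All genes were 419 with a filter at the 75th percentile, 4532 and 1171 with the weights, 1385 with the ACTB ratio and 349 at 0.01. In the difference (3 and 746), members called were 1 without a filter and 0 at 0.01 (8 unadjusted). All genes were 478 at the 75th percentile, 1262 with array weights, 1889 with the ACTB ratio and 230 at 0.01. Between the lines, all genes called were 6158 alone and 6224 in co-culture at the 75th percentile, and 16014 and 16414 by probe set. Without probe sets ending in _x_at or _s_at, which left 22 members to test, 14 and 18 were called.

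Leaving out 1 array at a time gave 0 to 8 members in the 786-O response, 2 to 3 in PC3, 0 to 4 in the difference, 26 to 29 between the lines alone and 27 to 30 in co-culture. All genes ranged over 536 to 2522, 434 to 1314, 395 to 1314, 8866 to 10007 and 8988 to 9753. Without 786-O with myoblasts replicate 3, MCM2, TYMS, CCND3, CCND1 and RRM2 joined the called members. The replicate block, for numbers not shown to pair the arrays, gave 2, 2, 2, 26 and 28 members in the 5 comparisons. It ended the MCM6 call in 786-O (limma adjusted p = 0.0655), the ORC1 difference of responses (0.0601) and the CDK2 call in co-culture (0.0641). The RFC4 difference of responses ended without an intensity trend (0.0678). ORC1 kept its 786-O call in 11 of 15 settings, RFC4 in 11 of 16 and MCM6 in 7 of 16, while in PC3 MCM4 kept its call in 15 of 16 and CDK6 in 13 of 16.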
